A study of Mus musculus with 8 samples.

Results

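The Schlafen genes of the mouse are a family of interferon-inducible genes, and 7 of them (Slfn1, Slfn2, Slfn3, Slfn4, Slfn5, Slfn8 and Slfn9) are described here in sorted haematopoietic stem cells. The 7 were taken by symbol from the 24421 genes of the deposited count and TPM tables. The family was picked because 1 of its members, Slfn2, had been lower in Dnmt3a+/- cells, so the comparison of genotypes is given for all 7 as a description with no test. Of the 7, 6 had enough counts to be tested among 15917 genes, and Slfn1 did not. Total RNA was sequenced in 8 libraries of long-term haematopoietic stem cells (LT-HSCs) sorted from mouse bone marrow as negative for lineage markers, positive for CD117 and Sca1, high for CD150 and low for CD48. A Vwf-GFP reporter, which stands for the platelet and endothelial gene Vwf, divided the cells into a Vwf+ fraction, biased toward megakaryocytes, and a Vwf- fraction. Both fractions came from wild-type (WT) mice and from mice heterozygous for Dnmt3a, a DNA methyltransferase gene, all of them 10 to 12 months old. The 4 resulting groups held 2 libraries each, replicate 1 from males and replicate 2 from females, and each library pooled 3 to 4 mice, so single mice were not resolved. The altered Dnmt3a allele is not described in the labels, which also do not say whether the Vwf+ and Vwf- libraries of 1 genotype and sex came from the same mice.

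Schlafen proteins share an N-terminal domain that resembles a divergent ATPase and can cleave or bind RNA, transfer RNA among it. Their genes are switched on by type I interferon in many blood cells. Short members hold little beyond that domain, intermediate members carry a further linker region, and long members end in a helicase-like domain. Slfn2, a short member, is known for keeping T cells and monocytes quiescent and for protecting transfer RNA from cleavage, and mice that lack its function are immunodeficient.

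In the GENCODE M21 annotation of GRCm38 the 7 genes lay within 264 kb of chromosome 11, from 82951349 to 83215154. The short members were Slfn1 (83116849 to 83122670, plus strand, 337 codons) and Slfn2 (83065112 to 83070678, plus strand, 2 exons, 378 codons). Intermediate members were Slfn4 (83175186 to 83190216, plus strand, 602 codons) and Slfn3 (83191330 to 83215154, plus strand, 640 codons), with a gap of 1.11 kb between them. The long members were Slfn5 (82951349 to 82964840, plus strand, 884 codons), Slfn9 (82978390 to 82991830, minus strand) and Slfn8 (83002158 to 83020810, minus strand), the last 2 with 910 codons each. Antisense transcripts overlap Slfn5 (Slfn5os) and Slfn2 (Gm20234), and the strand setting of the counting is not given in the sources used here. Slfn5os held 0 to 20 counts per library against 739 to 1308 for Slfn5. Gm20234 (83065752 to 83071246) was not among the counted genes under this name, so no count of it can be set beside Slfn2. The part of antisense reads in the counts of Slfn2 and Slfn5 was not tested. Among all 100-base words of the annotated transcripts, 0.128% of those of Slfn2, 2.92% of Slfn3, 3.38% of Slfn8, 3.71% of Slfn9 and 6.4% of Slfn5 also occurred in another gene. The gene sharing the most was Slfn5os for Slfn5, the pseudogene Slfn10-ps for Slfn8 and Slfn9, and Gm11427 for Slfn3. Among 50-base words the shares were 4.27% for Slfn2, 16% for Slfn3, 14.6% for Slfn8, 11.9% for Slfn9 and 11.1% for Slfn5. Reads from such stretches are of uncertain assignment, and the read length is not given in the sources used here.

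**Figure D1:**
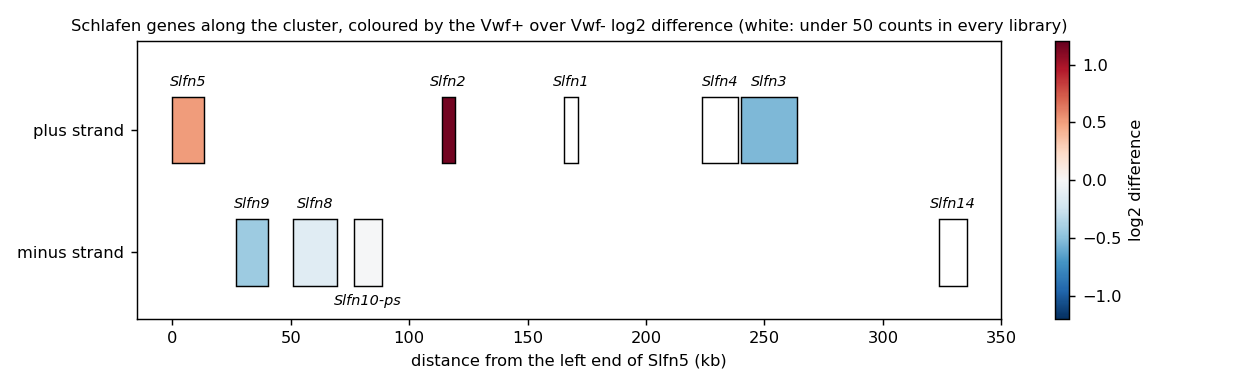
Map of the Schlafen genes of chromosome 11, with distance in kb from the left end of Slfn5 on the horizontal axis and the strand on the vertical axis. Boxes are genes, filled by the log2 difference between Vwf+ and Vwf- cells averaged over genotype. Slfn2 (1.16) has the deepest red while Slfn9 (−0.44) and Slfn3 (−0.54) are blue. Slfn1, Slfn4 and Slfn14 are left white because of their few counts, whatever their difference.

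The sequences just before the start sites of 4 of the members with the most counts are shown because they fall into different types, which the rule for choosing the genes did not use. They are the 250 bases before the RefSeq start of Slfn2 (chr11:83064862-83065111, plus strand), Slfn3 (chr11:83191080-83191329, plus strand), Slfn9 (chr11:82991831-82992080, minus strand) and Slfn8 (chr11:83020811-83021060, minus strand), from RefSeq on GRCm38.p6, each written 5′ to 3′ on the strand of its gene. For Slfn5 a stretch of 30 bases (chr11:82951937-82951966, plus strand) around a single match is shown. Capitals mark matches to the motifs named after the sequences.
Slfn2: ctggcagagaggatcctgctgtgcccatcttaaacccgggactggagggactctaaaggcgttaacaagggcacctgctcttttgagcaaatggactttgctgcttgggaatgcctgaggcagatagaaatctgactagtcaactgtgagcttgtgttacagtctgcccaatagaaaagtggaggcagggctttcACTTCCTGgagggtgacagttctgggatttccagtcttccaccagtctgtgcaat
Slfn3: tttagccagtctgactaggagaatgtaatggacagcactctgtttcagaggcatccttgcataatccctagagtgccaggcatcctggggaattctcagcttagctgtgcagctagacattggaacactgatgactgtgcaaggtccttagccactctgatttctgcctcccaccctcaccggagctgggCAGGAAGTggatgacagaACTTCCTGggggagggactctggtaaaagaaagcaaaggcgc
Slfn9: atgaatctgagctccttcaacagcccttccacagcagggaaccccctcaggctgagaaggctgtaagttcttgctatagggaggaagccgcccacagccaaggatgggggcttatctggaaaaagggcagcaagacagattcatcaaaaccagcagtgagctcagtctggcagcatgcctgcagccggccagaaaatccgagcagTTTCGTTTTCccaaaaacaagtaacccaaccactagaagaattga
Slfn8: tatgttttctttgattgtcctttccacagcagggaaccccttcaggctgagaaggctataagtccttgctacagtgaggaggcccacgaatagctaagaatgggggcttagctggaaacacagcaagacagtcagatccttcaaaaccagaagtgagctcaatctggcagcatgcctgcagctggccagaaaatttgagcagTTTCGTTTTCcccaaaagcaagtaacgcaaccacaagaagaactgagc
Slfn5: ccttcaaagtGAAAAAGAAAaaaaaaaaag

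Motifs were searched on both strands in windows from 250 bases before to 50 after each start. The core of the interferon-stimulated response element, GAAANNGAAA or TTTCNNTTTC, occurred in 3.44% of 32851 RefSeq promoters of that length. Slfn5 held it 155 bases before the start, Slfn8 48 bases and Slfn9 45 bases, which are the 3 long members described here. A second RefSeq start of Slfn8 puts the same match at 136 bases. The window of Slfn14, a Schlafen gene of 899 codons outside the members described here, did not hold the core. The core was thus not found before every Schlafen gene of such length. The RefSeq start of Slfn5 lies inside the GENCODE gene, downstream of its first base. The windows of Slfn1, Slfn2, Slfn3 and Slfn4 held no such letters. In Slfn8 and Slfn9 the match had the same letters, TTTCGTTTTC (GAAAACGAAA on the other strand), which occurred in 31 of the promoters (0.0944%). The short and intermediate members shared other letters, ACTTCCTG or CAGGAAGT, which contain the core bound by ETS factors and occurred in 3.33% of promoters. This motif stood 55 bases before the start of Slfn2, 74 before Slfn1 and 73 before Slfn4, and Slfn3 held it at 60 and at 42 bases, 1 match on each strand. ACTTCCTG and TTTCGTTTTC were chosen after the sequences had been seen. The palindrome TTCNNNGAA of STAT factors, present in 8.3% of promoters, was in no member's window. Aligned over their 300 bases, the windows of Slfn8 and Slfn9 were 80.5% identical, and the other 20 pairs of members were 41.9% to 49.4% identical. These matches describe letters and are not measured binding.

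Levels of different members were compared on the TPM scale, which divides by gene length. Slfn2 had the highest mean over the 8 libraries, 67.5 TPM, above 90.8% of all genes in the table. Slfn9 followed with 43.7 TPM and Slfn8 with 35.3 TPM, then Slfn3 with 15.8 TPM and Slfn5 with 12.8 TPM. The ranges of neighbours in this order overlapped, with 24.7 to 124 TPM for Slfn2, 26 to 74.5 TPM for Slfn9 and 27.1 to 46.2 TPM for Slfn8. Likewise Slfn3 (9.28 to 22.2 TPM) overlapped Slfn5 (7.54 to 16.7 TPM), and both stayed under every value of the first 3. Slfn4 was listed at 0 to 0.394 TPM and Slfn1 at 0 to 0.252 TPM. Thus 5 of the 7 genes made up nearly all of the family's RNA, 1 short, 1 intermediate and 3 long. In bulk RNA, fewer cells that express a gene and less RNA per cell cannot be told apart, for these and all later values.

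Slfn2 was higher in the Vwf+ than in the Vwf- fraction of both genotypes. On the CPM scale (a count divided by the TMM-scaled library total, times 1e+06), the male and female Vwf+ pools gave 96.8 and 82.4 for WT mice and 61.9 and 54.2 for Dnmt3a+/- mice. The Vwf- pools gave 47.8 and 41.2 CPM for WT mice and 27.3 and 19.6 CPM for Dnmt3a+/- mice. All 4 Vwf+ values lay above all 4 Vwf- values, a separation that 7.71% of the tested genes showed in this direction. Averaged over genotype, Slfn2 rose 2.23-fold in Vwf+ cells, by 1.16 ± 0.14 on the log2 scale (SE; edgeR adjusted p = 0.00097). In WT cells the mean was 89.6 ± 10.2 CPM in the Vwf+ and 44.5 ± 4.68 CPM in the Vwf- fraction (SD, n = 2), a 2.01-fold rise (log2 1.01 ± 0.19 SE). It passed in edgeR's test across all genes (adjusted p = 0.028), but not when either Vwf+ WT or either Vwf- WT library was left out (adjusted p 0.081 to 0.29, log2 0.87 to 1.12). In Dnmt3a+/- cells the mean was 58.1 ± 5.44 CPM against 23.5 ± 5.43 CPM (SD, n = 2), a 2.47-fold rise (log2 1.30 ± 0.19 SE, edgeR adjusted p = 0.011).

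**Figure D2:**
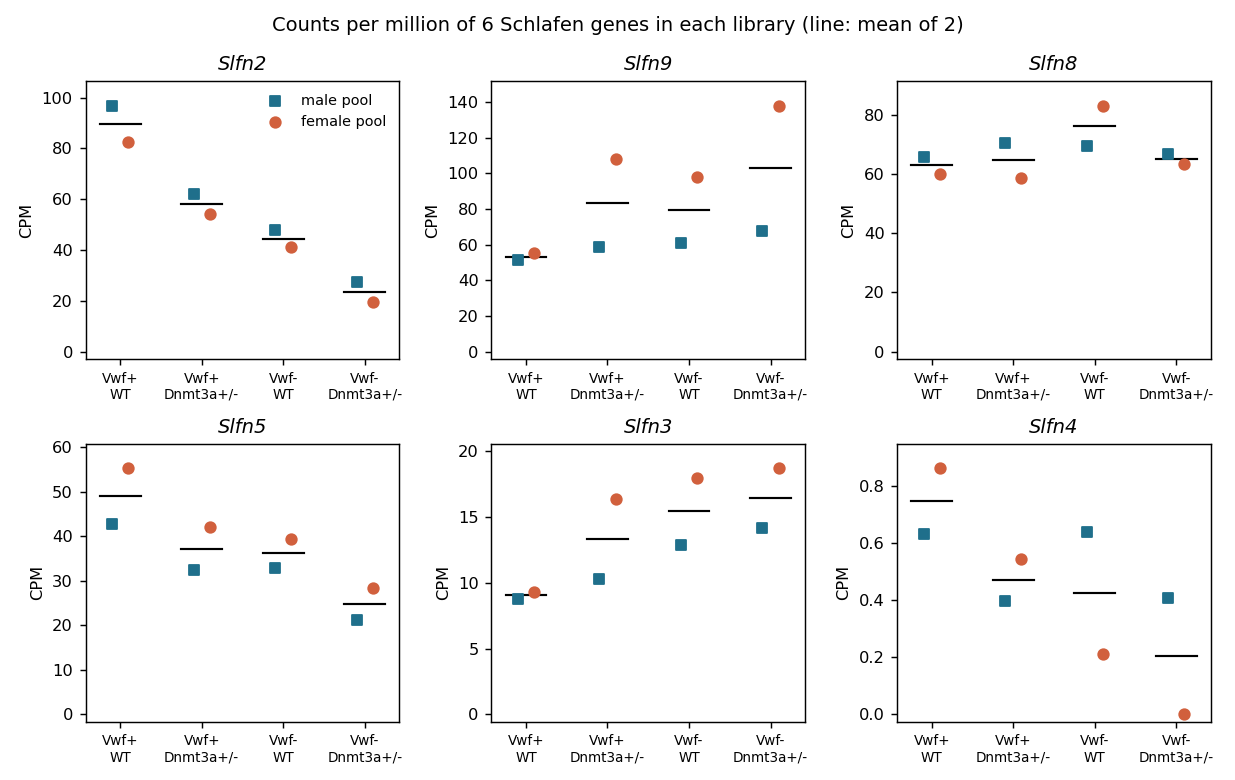
CPM of 6 Schlafen genes in the 8 libraries, with a panel and a linear vertical axis for each gene. Squares are male pools, circles female pools and lines the mean of 2, and Slfn2 steps down from 96.8 and 82.4 CPM in Vwf+ WT to 27.3 and 19.6 CPM in Vwf- Dnmt3a+/- cells, while the 3 highest Slfn9 values, 98 to 138 CPM, are female pools.

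The long members did not move as a block between the fractions. For Slfn5, a nuclear member, the male and female WT pools gave 42.8 and 55.2 CPM when Vwf+ and 32.9 and 39.3 CPM when Vwf-. The Dnmt3a+/- pools gave 32.4 and 42 CPM when Vwf+ and 21.2 and 28.4 CPM when Vwf-. It was higher in Vwf+ cells in 4 of 4 pairs of the same genotype and sex, by 0.38 to 0.62 on the log2 scale, a pattern that 16.6% of genes showed. The averaged difference of 0.51 ± 0.16 (SE), or 1.43-fold, did not pass (edgeR adjusted p = 0.1), and it passed with the replicate number as a block (adjusted p = 0.0013). Because that number is the sex of the pool, the block takes the difference between male and female libraries out of the error. Slfn8 stood between 58.6 and 83 CPM in all 8 libraries and differed by −0.14 ± 0.11 (log2, SE; edgeR adjusted p = 0.61). For Slfn9, its neighbour in the cluster, the male and female WT pools gave 51.2 and 55.4 CPM when Vwf+ and 61.1 and 98 CPM when Vwf-, and the Dnmt3a+/- pools 58.5 and 108 CPM when Vwf+ and 67.5 and 138 CPM when Vwf-. It was lower in Vwf+ cells in 4 of 4 pairs, by 0.20 to 0.82 on the log2 scale, as 17.6% of genes were. Its averaged difference was −0.44 ± 0.25 (SE; edgeR adjusted p = 0.45), or −0.40 ± 0.12 with the block (adjusted p = 0.03).

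Among the intermediate members, Slfn3, a gene linked to differentiation of gut epithelium, measured 8.77 and 9.3 CPM in the male and female WT pools when Vwf+ and 12.9 and 18 CPM when Vwf-. The Dnmt3a+/- pools gave 10.3 and 16.4 CPM when Vwf+ and 14.2 and 18.7 CPM when Vwf-. The Vwf+ value was the lower in each of the 4 pairs, as in 17.6% of genes. The fall was 0.19 to 0.95 on the log2 scale and was larger in WT cells. The averaged difference was −0.54 ± 0.20 (log2, SE; edgeR adjusted p = 0.19) and passed with the replicate block (adjusted p = 0.023). Slfn4, which is induced in activated macrophages and lies next to Slfn3, had 9 to 20 counts in the Vwf+ libraries and 18, 7, 17 and 0 in the Vwf- libraries. The count of 0, in the female Vwf- Dnmt3a+/- library, allows up to 0.0958 CPM (3 counts), and that limit covers counting error only. No difference was detectable at this depth for Slfn4 (log2 0.99 ± 0.98 SE, edgeR adjusted p = 0.72). Slfn1, the founding member, whose overexpression arrests thymocyte growth, had 0 to 7 counts per library and was not tested.

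Thus 1 of 6 tested members was called between the fractions, in the higher direction, where 5.44% of all genes were called and 3.76% were higher. With the replicate block it was 4 of 6, Slfn2 and Slfn5 higher and Slfn3 and Slfn9 lower, where 13.4% of all genes were called, 7.42% higher and 5.97% lower. In WT alone 1 of 6 was called (1.97% of genes) and with the block 2 of 6 (8.35%), Slfn2 higher and Slfn3 lower (log2 −0.75, adjusted p = 0.039). In Dnmt3a+/- cells 1 of 6 was called (1.06% of genes) and with the block 2 of 6 (5.37%), Slfn2 and Slfn5 (adjusted p = 0.018). The median difference of the 6 was 0.18 on the log2 scale and that of all genes −0.01. Whether the fractions differed by a different amount in the 2 genotypes was tested as an interaction in edgeR. No member was called (0 of 6; 0% of genes), and 0 of 6 had an unadjusted p under 0.05 where 0.999% of genes did. DESeq2 called none of the 6 either. For Slfn2 the interaction was 0.30 ± 0.27 (log2, SE), so the difference in Dnmt3a+/- cells was not distinguishable from that in WT cells.

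**Figure D3:**
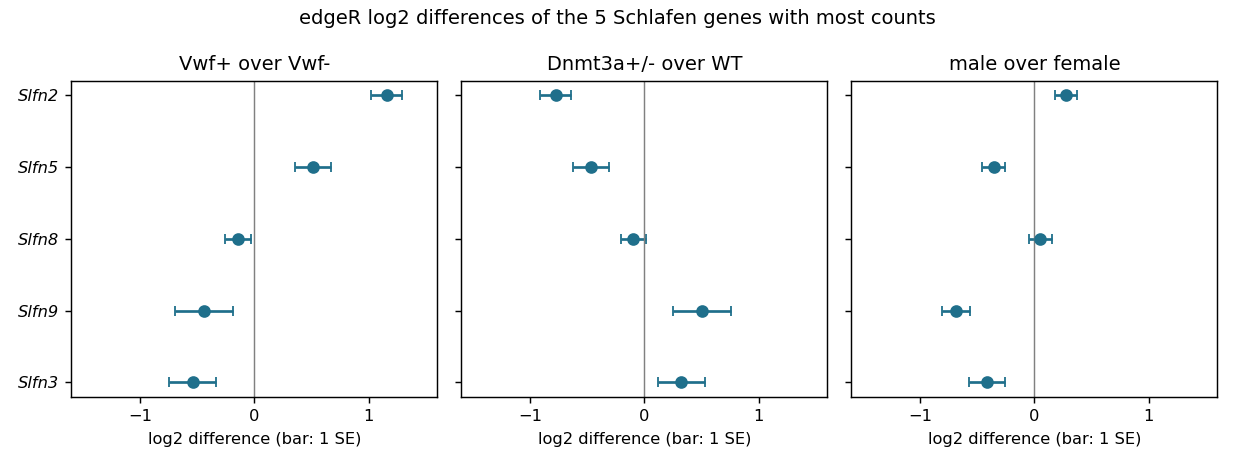
Log2 differences of 5 Schlafen genes in 3 comparisons of the same 8 libraries, with points for the edgeR estimate and bars for 1 SE. Slfn2 lies at 1.16 for Vwf+ over Vwf- and at −0.77 for Dnmt3a+/- over WT, and Slfn9 at −0.68 for male over female.

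The make-up of the family in each library was described by the share of each member in the summed TPM. The 7 genes together made 169 to 213 TPM in the Vwf+ libraries and 132 to 195 TPM in the Vwf- libraries, which overlapped. Slfn2 was 58.2% and 53% of that sum in Vwf+ WT, 45.9% and 35.6% in Vwf+ Dnmt3a+/-, 38.5% and 28.3% in Vwf- WT and 26.5% and 15.1% in Vwf- Dnmt3a+/- libraries. Slfn9 took 13.3% to 30.6% in the Vwf+ and 21.2% to 45.5% in the Vwf- libraries. The ratio of Slfn2 to Slfn9 in TPM ran from 4.38 in the male Vwf+ WT library to 0.331 in the female Vwf- Dnmt3a+/- library. Within pairs of the same genotype and sex it was 2.98-fold higher in Vwf+ cells (mean log2 difference 1.57 ± 0.29 SD, higher in 4 of 4 pairs). The 2 genes were paired after their values had been seen, so this ratio is a description with no test.

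**Figure D4:**
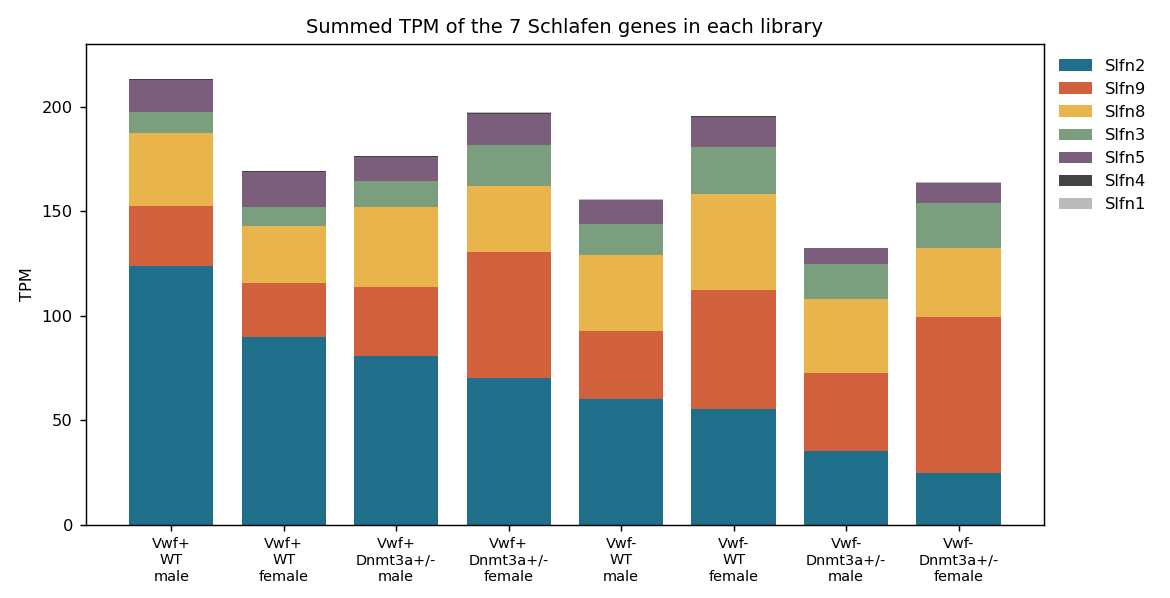
Stacked bars of TPM of the 7 Schlafen genes in each of the 8 libraries, from 0. The Slfn2 segment takes 58.2% of the bar in the male Vwf+ WT library and 15.1% in the female Vwf- Dnmt3a+/- library, where Slfn9 takes 45.5%.

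Male and female pools differed in Slfn9 and Slfn5. In the same 4 group means with sex added, Slfn9 was 1.61-fold lower in male pools, by −0.68 ± 0.12 (log2, SE; edgeR adjusted p = 0.0013). By group the male minus female difference was −0.11 in Vwf+ WT, −0.88 in Vwf+ Dnmt3a+/-, −0.68 in Vwf- WT and −1.03 in Vwf- Dnmt3a+/- cells, so the Vwf+ WT pools lay closest together. Slfn5 was 1.28-fold lower in male pools (−0.35 ± 0.10 on the log2 scale, edgeR adjusted p = 0.031), and lower in 4 of 4 groups, as 15.7% of genes were. Slfn5 did not pass when any 1 of the 2 Vwf+ Dnmt3a+/-, 2 Vwf- Dnmt3a+/- or 2 Vwf- WT libraries was left out (adjusted p 0.07 to 0.13). Slfn3 (−0.41 ± 0.16, adjusted p = 0.098), Slfn2 (0.28 ± 0.10, adjusted p = 0.077) and Slfn8 (0.05 ± 0.10, adjusted p = 0.8) did not pass in edgeR, nor did Slfn4 with its few counts. Both calls, 2 of 6, were lower in male pools, where 5.62% of all genes were lower and 10.5% were called. With limma on log2(TPM + 1) neither passed (adjusted p = 0.094 for Slfn9 and 0.33 for Slfn5).

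Slfn8 and Slfn9, whose sequences before the start are 80.5% identical, were set side by side. The ratio of Slfn9 to Slfn8 in TPM was 0.811 to 1.05 in male and 0.959 to 2.26 in female libraries, and higher in the female library in 4 of 4 groups. Its mean log2 difference was 0.73 ± 0.47 (SD of 4 groups). The pair was chosen after the values had been seen, and whether the sex difference differs between the 2 genes was not tested. The nuclear RNA Malat1 moved with sex, from 0.446% to 0.585% of counts in female libraries to 0.974% to 1.97% in male libraries. Sex, replicate number and this share cannot be told apart across the libraries, and the part of Malat1 in the Slfn9 and Slfn5 differences was not tested.

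By genotype, the contrast on which the family was picked, Slfn2 was lower in Dnmt3a+/- libraries in each of the 4 pairs of the same fraction and sex. In Vwf+ cells its log2 differences were −0.64 in males and −0.60 in females, and in Vwf- cells −0.81 and −1.07. The averaged estimate was −0.77 ± 0.14 (SE), a 1.71-fold lower level, with −0.63 ± 0.19 in the Vwf+ and −0.92 ± 0.19 in the Vwf- fraction. Slfn5 was also lower in all 4 pairs, by −0.40, −0.39, −0.64 and −0.47 in the same order, with an averaged estimate of −0.47 ± 0.16. Slfn9 was higher in all 4 pairs (0.19, 0.96, 0.14 and 0.49), with the larger values in female pools. Slfn3 was higher in all 4 as well (0.23, 0.81, 0.13 and 0.05). Slfn8 stood at −0.10 ± 0.11 and Slfn4, with its few counts, at −0.83 ± 0.98. Of all tested genes, 7.53% were lower and 8.23% higher in 4 of 4 such pairs, figures from which nothing is read for a family chosen on this contrast. Markers of some other cells were higher in Dnmt3a+/- libraries by their median. It was 0.83 on the log2 scale for 13 monocyte and macrophage markers (11 above 0). For 9 neutrophil markers it was 0.61 (8 above 0) and for 5 B cell markers 0.7 (4 above 0). Medians of T and NK (−0.04), endothelial (−0.01), erythroid (−0.1) and megakaryocyte and platelet markers (0.16) were closer to the 0.01 of all genes. Summed CPM of the 13 monocyte and macrophage markers overlapped between genotypes, with 160 to 262 in WT and 199 to 290 in Dnmt3a+/- libraries. Lyz2 made up most of that sum. The other 12 summed to 13.8 to 40.6 CPM in WT and 27.2 to 92.2 CPM in Dnmt3a+/- libraries, with 92.2 in the female Vwf+ library. Neutrophil sums (5.58 to 10.7 and 5.25 to 40.1) and B cell sums (11.9 to 18.4 and 12.3 to 19) overlapped too. The part of these cells in the genotype values of Slfn2 and the other members was not tested. By group means, Slfn2 and Slfn5 were highest in Vwf+ WT and lowest in Vwf- Dnmt3a+/- cells, and Slfn9 and Slfn3 the reverse. Pools of Vwf- WT and Vwf- Dnmt3a+/- cells overlapped for Slfn3 (12.9 and 18 against 14.2 and 18.7 CPM) and Slfn9 (61.1 and 98 against 67.5 and 138 CPM). This ordering includes the contrast on which the family was picked and is a description only.

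Other Schlafen genes were not called between the fractions. The pseudogene Slfn10-ps, between Slfn8 and Slfn2, stood at 11.1 to 19.6 CPM and differed by −0.02 ± 0.19 between fractions (log2, SE; edgeR adjusted p = 0.99), a sign that changed when single libraries were left out. Slfn14, a ribosome-associated ribonuclease gene of the platelet and red cell lineages, had 0 to 48 counts, and Slfnl1, a Schlafen-like gene on chromosome 4, had 0 to 83. Neither passed in edgeR (adjusted p = 0.9 and 0.59). Within 500 kb on either side of the cluster 24 of 31 other genes were tested. None was called between the fractions (median −0.05), where 5.44% of all genes were. Of these 24, 2 were lower with the replicate block, a share near the 5.97% of all genes. Ccl3, a chemokine gene, stood at log2 −2.56 ± 0.67 SE (edgeR adjusted p = 0.054, 0.00035 with the block). Taf15 stood at −0.34 ± 0.10 (edgeR adjusted p = 0.092, 0.016 with the block). Both are named after their values had been seen. The neighbours with the most counts, Ap2b1 and AI662270, stood at −0.01 and 0.01, signs that changed with the setting.

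Genes known to be induced by interferon were read beside the family. Of 37 tested, 5 rose in Vwf+ cells (Ifitm1, Ifitm3, Ifi44, Rtp4 and Ifit1) and 0 fell, where 3.76% of all genes rose, and the median was 0.15 on the log2 scale against −0.01 for all genes. With the block the counts were 7 and 0, where 7.42% of all genes rose. The antiviral membrane gene Ifitm1 stood at 180 to 248 CPM in Vwf+ and 113 to 160 CPM in Vwf- libraries (log2 0.82 ± 0.13 SE, edgeR adjusted p = 0.0043), and Ifitm3 rose by 0.65 ± 0.11 (adjusted p = 0.0063). Ifi44 stood at 34.6 to 49.7 CPM in Vwf+ and 16.6 to 26.5 CPM in Vwf- libraries. For each of these 5 genes all 4 Vwf+ values lay above all 4 Vwf- values. Of the tested genes 7.71% showed that separation in this direction. The 5 were named for their difference between the same fractions, so the separation adds nothing to it. Of 20 genes of interferon signalling 1 passed, near the 5.44% of all genes, the transcription factor gene Irf5. It fell in Vwf+ cells, with 20.8 to 26.9 CPM in Vwf- and 11.5 to 19.8 CPM in Vwf+ libraries (log2 −0.69 ± 0.15 SE, edgeR adjusted p = 0.023). With the block 2 rose and 1 fell, near the 13.4% of all genes called. Irf5 did not pass in 7 of the 13 other settings (adjusted p up to 0.093). By genotype the 37 induced genes had a median of −0.13 on the log2 scale and 29 of them were below 0, against a median of 0.01 for all genes. That contrast picked the family and was not tested, so these values are a description only. Between sexes 2 of the 37 were lower in male pools, Ifit2 and Lgals3bp, a share near the 5.62% of all genes. Ifit1, Ifit2 and Lgals3bp are named after their values had been seen.

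Of 16 quiescence genes 3 rose in Vwf+ cells, where 3.76% of all genes did, and 0 fell. They were the factor Klf2, the cell cycle inhibitor Cdkn1c and the antiproliferative gene Btg2. Klf2 stood at 36.1 to 49.4 CPM in Vwf+ and 9.04 to 18.7 CPM in Vwf- libraries (log2 1.50 ± 0.22 SE, edgeR adjusted p = 0.0034), Cdkn1c at 43.9 to 59.6 and 25.8 to 34.5 CPM (0.94 ± 0.14, adjusted p = 0.0034). Btg2 rose by 1.50 ± 0.30 (edgeR adjusted p = 0.016) and was also higher in male pools (0.78 ± 0.14, adjusted p = 0.0014). Its rise in Vwf+ cells did not pass in limma (adjusted p = 0.062) or without the male Vwf+ WT library (0.053). The median of the 16 was 0.08, against −0.01 for all genes. Of 9 genes that cut or protect transfer RNA, 6 were tested and none was called between the fractions in either direction. With 5.44% of all genes called, so short a list gives no result about these genes. The RNA methyltransferase gene Nsun2 and the processing enzyme gene Elac2 stood at −0.01 ± 0.14 and −0.17 ± 0.12.

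The 5 genes whose log2 CPM followed that of Slfn2 most closely over the 8 libraries, out of 10175 compared, were Asb8 (Pearson r = 0.986), Psenen (0.985), Rbl2 (0.978), Zfp12 (0.975) and Acadsb (0.969). Their Spearman rho was 0.95 to 1. They moved far less than Slfn2 between the fractions (log2 0.15 to 0.32), and none passed in edgeR. Within the family Slfn3 and Slfn9 ran together (r = 0.91), and Slfn2 ran against Slfn3 (r = −0.82) and with Slfn5 (r = 0.77). Slfn8 and Slfn9 were unrelated in these libraries (r = −0.02). All these values are descriptions over 8 libraries of 4 groups and carry no test.

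Library totals were 21809278 to 28844349 counts in the Vwf+ and 27891160 to 39402418 in the Vwf- fraction, and the 7 members took 0.021% to 0.0275% of them. Vwf stood at 1030 to 1410 CPM in Vwf+ and 98.9 to 116 CPM in Vwf- libraries, as the sort labels say. Dnmt3a transcript stood at 175 to 251 CPM in WT and 179 to 361 CPM in Dnmt3a+/- libraries, which does not check the genotype, since counts over a gene do not separate alleles. All 12 LT-HSC markers were found in the table, at a sum of 2850 to 3240 CPM in Vwf+ and 2370 to 2730 CPM in Vwf- libraries. Of the 12, 6 were called higher (9 with the block). Of all genes 3.76% were called higher (7.42% with the block) and 5.44% in either direction, shares that stand beside the marker counts below too. Lists with 4 or 5 tested markers are too short to set against these shares. The 13 monocyte and macrophage markers, cells in which Slfn2 and Slfn4 are known to act, summed to 238 to 290 CPM in Vwf+ and 160 to 213 CPM in Vwf- libraries, with 0 of the 13 called (3 higher with the block). Lyz2 made up most of it, at 198 to 221 and 146 to 193 CPM, and the other 12 summed to 21.5 to 92.2 and 13.8 to 41.9 CPM, which overlapped. Endothelial markers (8 of 8 found, 3 higher) summed to 462 to 573 and 355 to 413 CPM, and 6 megakaryocyte and platelet markers (1 of 5 tested higher) to 238 to 381 and 187 to 240 CPM. T and NK cell markers (10 of 11 found) summed to 17.7 to 22.3 CPM in Vwf+ and 22.9 to 25.6 CPM in Vwf- libraries, with 1 of 4 tested (Nkg7) lower. Neutrophil markers (10 of 11 found) summed to 5.25 to 24.5 CPM in Vwf+ and 7.45 to 40.1 CPM in Vwf- libraries. B cell markers (7 of 8 found) summed to 12.3 to 19 and 11.9 to 16.3 CPM, and erythroid markers to 16.7 to 18.9 and 12.1 to 20.1 CPM, with Hba-a1, Hbb-bs and Hbb-bt at 0 in all libraries. The LT-HSC, monocyte, endothelial and T cell sums moved with the fractions, and their part in the difference of Slfn2 was not tested.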

How the data were processed

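The authors deposited a table of raw counts and a table of TPM, whole numbers per gene in the first and values that sum to 1e+06 per library in the second. Per the submitters' processing notes, Trim Galore, STAR, featureCounts and DESeq2 were used on mouse genome build mm10, with no versions. The annotation, the strand setting and the treatment of multi-mapping reads are not given in the sources used here. RNA came from a micro-scale kit and libraries from a low-input total RNA kit, per the labels.

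The deposited counts entered edgeR 4.0.16 under R 4.3.3 (filterByExpr with a minimum count of 10, TMM, quasi-likelihood F-test, 4 group means, 4 residual degrees of freedom). P-values were adjusted by Benjamini-Hochberg over 15917 genes, with a threshold of 0.05. In the fit of 4 group means they measure only the spread between pools, male against female in each group. The fits with sex or the replicate block add a term for male pools and leave 3 residual degrees of freedom. Their p-values measure how far the male minus female difference varies among the groups. SE is the log2 change divided by the square root of F. Alternatives were a replicate block, DESeq2 1.42.0, RLE factors, no filter, limma 3.58.1 on log2(TPM + 1) and each library left out, and the script was tested on simulated counts. Replicate numbers were taken as pairing libraries, since the labels give number 1 to males and 2 to females in every group and the deviations correlated (r = 0.13 to 0.3 over the 6 pairs of groups). A Vwf+ and a Vwf- library of 1 genotype and sex were treated as independent.

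Named were all 7 members and other Schlafen genes, up to 4 genes per list and direction with the smallest p between fractions (or the 2 with the most counts where none passed), and the 5 genes most like Slfn2 among those with a mean log2 CPM over 3. Genes named outside this rule are marked where they appear. Marker lists are given as sums of CPM. Members and lists were chosen with earlier results of these data known.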

Additional observations from a re-analysis of the deposited data

How the results depend on the processing

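Slfn2 between the fractions passed in 13 of 13 other settings averaged over genotype (log2 1.04 to 1.28) and in Dnmt3a+/- cells (1.09 to 1.57), and in 8 of 13 in WT cells, where it was lost in limma (0.86) and without any 1 of the 4 WT libraries. The number of members called averaged over genotype was 4 with the replicate block and 3 with no filter on low counts (Slfn2, Slfn5 and Slfn9), and 1 to 2 with a library left out (2 without the female Vwf- Dnmt3a+/- library, which added Slfn5). In WT it was 2 with the block, 2 with no filter and 0 in limma, and 0 to 1 with a library left out. In Dnmt3a+/- cells it was 2 with the block. Between sexes it was 0 in limma and 1 to 3 with a library left out, since Slfn5 was lost or Slfn3 gained (without either Vwf+ WT library). The interaction called 0 members in 13 of 13 settings. The block changed no call of a member beyond those given above. Over all genes, calls between the fractions ran from 472 to 2132 (866 in the main test), in WT from 64 to 1329 (314), in Dnmt3a+/- cells from 75 to 855 (169), between sexes from 287 to 2922 (1677), and for the interaction they were 24 with no filter (0).

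Signs that changed belong to differences that did not pass. With a library left out, log2 differences between the fractions ran from −0.16 to 0.17 for Ap2b1 (0.01 with the block), −0.05 to 0.07 for AI662270 (−0.04 in limma), −0.12 to 0.11 for Nsun2, −0.17 to 0.13 for Slfn10-ps, −0.04 to 0.29 for Cd79b, −1 to 1.32 for Ltf and −2.73 to 0.14 for Ngp. Those of Slfn9 in Dnmt3a+/- cells ran from −0.80 to 0.31, and those of Slfn8 between sexes from −0.02 to 0.16. Ltf and Ngp are neutrophil genes whose positive values came without the female Vwf- Dnmt3a+/- library, which had the highest neutrophil sum (40.1 CPM). The cause of these changes was not tested. The genotype difference of Slfn2, on which the family was picked, stayed between −0.91 and −0.67 in 12 of 12 settings. These settings reuse the libraries that picked it, so the range describes the processing and gives no support for the difference. With 2 pools per group and at most 20 counts per library, Slfn4 and Slfn1 give no usable comparison.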
